A study of Mus musculus with 16 samples.

Results

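The dependence of the Rock2 deletion effect on B cell type was examined in the 12 RNA-seq libraries of the study, out of 16 samples in all. For each gene the quantity of interest was the change from WT to conditional knockout (cKO) in germinal center B cells (GCB), minus the same change in follicular B cells (FoB). The members are all 12 RNA-seq libraries. They were chosen by assay and not by any measured value, though with earlier results of these data known. The 4 groups of 3 libraries each (FoB and GCB of WT and of cKO mice) came from spleens of 10-week-old C57BL/6 mice, 7 days after immunization with 100 µg NP-CGG in alum. Both genotypes carried 2 floxed Rock2 alleles. WT mice had no Cre, and cKO mice carried CD23-Cre. Cells were sorted by FACS, with no gate given in the sources used here. CD23-Cre acts once B cells display CD23, before they enter a germinal center, so FoB of cKO mice are a targeted population too and not an untouched control. Nothing states that replicates came from separate animals, so p-values below measure the spread between these samples, which may be technical.

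ROCK2 is a serine-threonine kinase downstream of the GTPase RhoA. It phosphorylates LIM kinases and regulators of the myosin light chain, and through them sets actomyosin contraction and cell migration. Follicular B cells are resting cells that recirculate through follicles by following chemokine and oxysterol gradients. On antigen and T cell help some of them become germinal center B cells. These lower some of the follicular migration receptors, divide fast and mutate their antibody genes. Some later leave as memory B cells, which regain part of the follicular program.

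The labels were checked first. Mybl1, a transcription factor of germinal center B cells, stood at 189 to 322 CPM (counts scaled to library size by TMM) in the 6 GCB libraries and at 1.36 to 5.77 CPM in the 6 FoB libraries. Fcer2a, which encodes the follicular B cell antigen CD23, stood at 1280 to 1900 CPM in FoB and at 296 to 421 CPM in GCB. Ms4a1, which encodes the B cell antigen CD20, was at 1020 to 3030 CPM in every library. The T cell gene Cd3e was at or under 2.38 CPM and the stromal gene Col1a1 at or under 0.0413 CPM. Summed over whole marker lists, T cell genes reached 308 to 418 CPM in FoB and 151 to 187 CPM in GCB. Stroma and endothelium genes summed to 331 to 403 CPM in FoB and 84.2 to 109 CPM in GCB. Cd3e and Col1a1 therefore do not stand for their lists. Rock2 itself measured 151, 129 and 132 CPM in WT FoB and 123, 87.4 and 96.5 CPM in cKO FoB. In GCB it measured 198, 154 and 145 CPM in WT and 119, 131 and 92.6 CPM in cKO. Every cKO library was below every WT library of its cell type. The log2 fold change was -0.43 ± 0.12 in FoB and -0.53 ± 0.12 in GCB (± standard error), and the difference between them was -0.10 ± 0.16 (edgeR adjusted p = 0.996). The paralog Rock1 differed by -0.08 ± 0.14 (edgeR adjusted p = 0.996). Counts cover whole genes, so they also hold exons outside the floxed part, and reads shared by the paralogs may be split. Rock2 and Rock1 also host noncoding RNAs, so part of their reads is uncertain.

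Libraries of 1 cell type were not equally distinct from the other. WT FoB 1 carried more GCB transcripts than the other FoB libraries: the 569 genes at least 4-fold higher in WT GCB had a median of 14.5% of their WT GCB level there, against 8.18% to 11.1% in the other 5. Its Mybl1 level of 5.77 CPM compared with at most 1.95 CPM in the others. In cKO GCB 1 the summed naive follicular markers were highest of the 6 GCB libraries, at 2230 CPM, and the summed germinal center markers lowest, at 8090 CPM. A share of other cells and a different level per cell cannot be told apart in bulk RNA. The calls that were lost without either library are named below. Total counts were 23349512 to 26967943 per library.

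More genes passed the cKO test in GCB than in FoB, and genes past the test of the difference itself lay in 1 direction. Of 13708 genes tested, 36 had a higher cKO effect in GCB than in FoB (0.263% of genes tested), and 0 had a lower one (0%). The smallest edgeR adjusted p of a negative difference was 0.107. At an unadjusted p under 0.05 there were 758 positive and 250 negative differences. DESeq2 called 158 positive and 3 negative differences, and limma voom 42 and 0. In the same fit 264 genes rose (1.93%) and 29 fell (0.212%) in cKO GCB. In cKO FoB 0 rose (0%) and 0 fell (0%), with 124 and 175 genes at an unadjusted p under 0.05. DESeq2 called 3 higher and 4 lower in FoB, and voom 2 and 0.

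Most of what rose in GCB leaned away from FoB. Of the 264 genes that rose in cKO GCB, 263 had a positive difference, with a median of 1.00 on the log2 scale, and 34 passed the test of the difference. Their median log2 fold change was 0.99 in GCB and 0.01 in FoB. Of the 29 that fell in cKO GCB, 25 had a negative difference (median -0.36) and 0 passed. Since the GCB libraries enter both the selection and the difference, these counts describe the genes and test nothing further. Over all genes tested the median difference was 0.00.

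**Figure D1:**
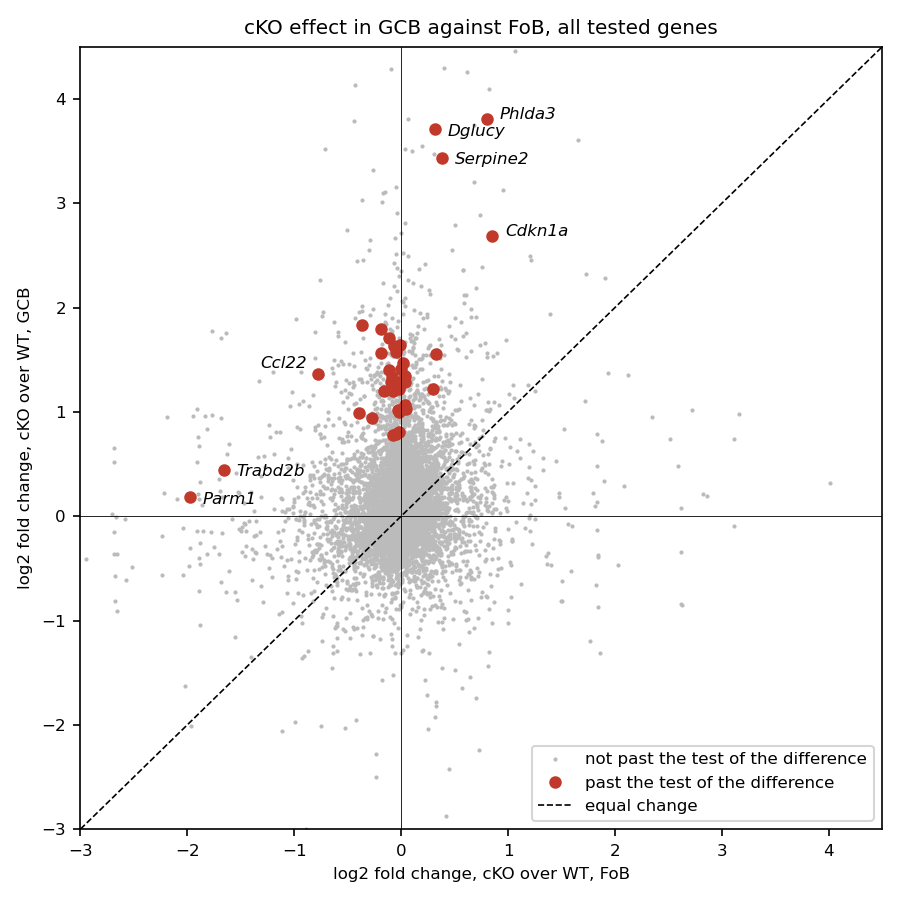
Log2 fold change of cKO over WT in FoB (horizontal axis) and in GCB (vertical axis), 1 point per gene tested. Red points are the 36 genes past the test of the difference, all above the dashed line of equal change. For 31 of them the FoB change was under 0.5 in size, while Parm1 and Trabd2b lie far to the left. Outside the axes, which run from -3 to 4.5, lie 22 points.

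The 36 genes comprised 33 genes and 3 immunoglobulin kappa variable segments. Their differences ran from 0.82 to 3.39 on the log2 scale (median 1.40). Each was positive in 3 of 3 replicate numbers, when the WT-to-cKO change was taken within a number (log2 CPM with a prior count of 2). The WT and cKO libraries of FoB overlapped for 29 of the 36, and for 97.8% of all genes tested. In 33, every cKO GCB library lay above every WT GCB library, as it did for 5.42% of all genes tested. The libraries behind these counts also made the call, so the counts describe the genes and test nothing further. Number 1 gave the largest of the 3 differences for 30 genes and number 3 the smallest for 29. The 12 genes that the naming rule takes by size were Dglucy, Serpine2, Bhlhe41, Parm1, Ccl22, Trabd2b, Fcrl5, Cdkn1a, S100a10, Csf1, Pml and Capg. The other called genes are named because of a list they belong to, or after their values were seen.

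How firmly a gene is called depended on the libraries. Without the replicate block 1 gene passed (Dglucy). Leaving out 1 library gave 23 genes without WT FoB 1, 38 without WT FoB 2, 9 without WT FoB 3, 6 without cKO FoB 1, 8 without cKO FoB 2 and 9 without cKO FoB 3. On the GCB side it gave 8 without WT GCB 1, 20 without WT GCB 2, 11 without WT GCB 3, 28 without cKO GCB 1, 8 without cKO GCB 2 and 153 without cKO GCB 3. Of the 36 genes, 23 passed without WT FoB 1 and 24 without cKO GCB 1. The 13 that lost the call without WT FoB 1 were Ccr6, Bhlhe41, Phlda3, Zmat3, Cdkn1a, Sub1, Slc17a9, Adam19, B4galt1, Myo1f, Trabd2b, Igkv3-4 and Igkv4-55, with edgeR adjusted p from 0.0521 to 0.115 and differences from 0.79 to 2.97. The 12 that lost it without cKO GCB 1 were Bhlhe41, Zmat3, Cdkn1a, Sub1, Slc17a9, Adam19, B4galt1, Fxyd5, Lgals3bp, Trabd2b, Igkv3-4 and Igkv4-55, with edgeR adjusted p from 0.0511 to 0.12 and differences from 0.67 to 2.23. Without both of these libraries, a setting chosen after seeing the data, 1 passed. The difference of all 36 was positive in each of 24 alternatives, but 1 gene, Dglucy, was past the test in every one.

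**Figure D2:**
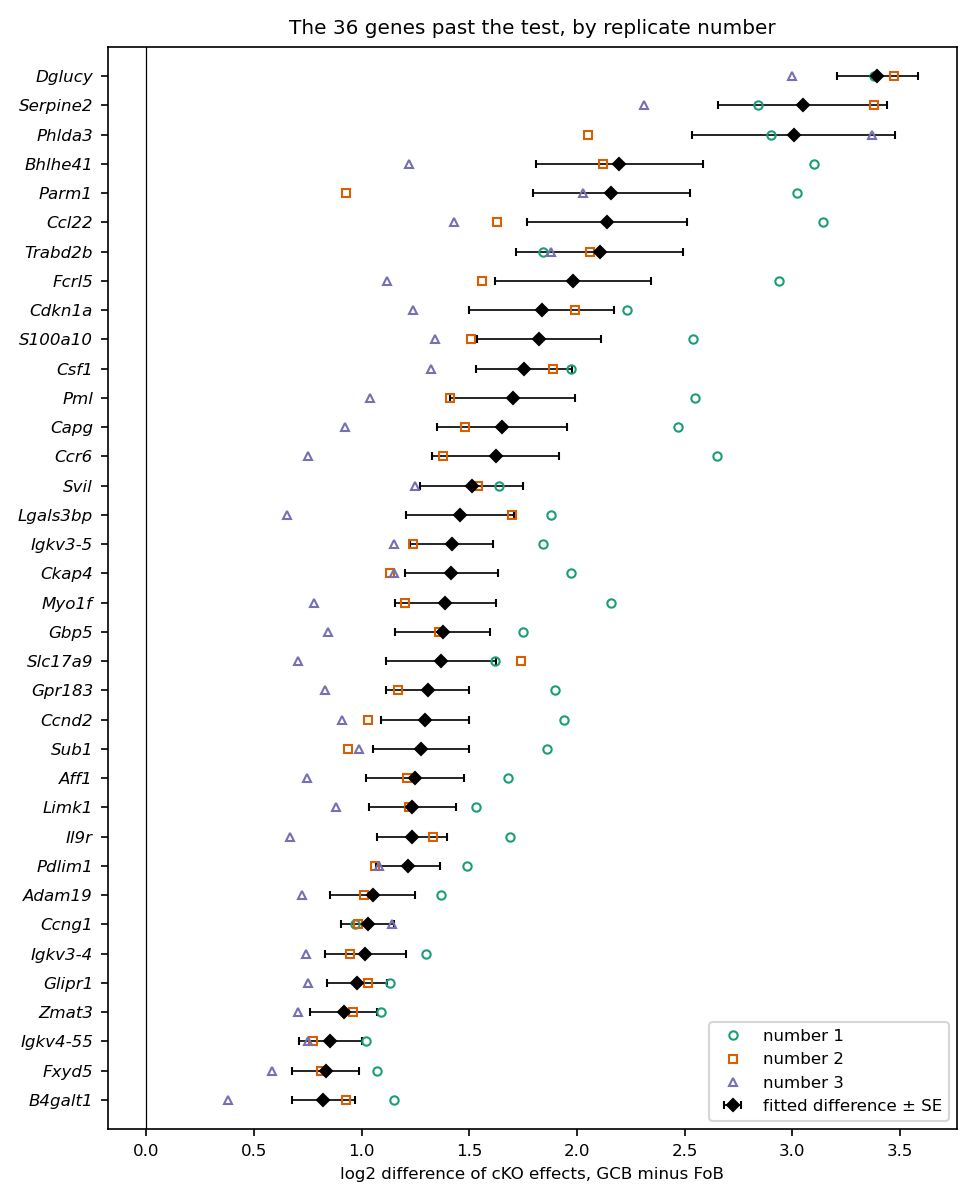
Log2 difference of the cKO effects (GCB minus FoB) for the 36 genes past the test, on the horizontal axis. Diamonds are fitted differences with bars of ± 1 standard error, and open symbols are replicate numbers 1, 2 and 3. All 3 numbers lie above 0 for every gene, and number 1 lies farthest right for 30 of them.

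Dglucy, the gene for D-glutamate cyclase of mitochondria, showed the largest difference (ENSMUSG00000021185, chromosome 12, 100779057 to 100872610 on GRCm38). It measured 19.2, 16.2 and 14.1 CPM in WT FoB, and 22.1, 19.8 and 19.3 CPM in cKO FoB. In WT GCB it was nearly silent at 0.917, 0.668 and 0.762 CPM, and in cKO GCB it stood at 11.8, 10.0 and 9.16 CPM. The GCB groups were far apart. The cKO FoB libraries all lay above the WT FoB libraries, though Dglucy was not past the test in FoB. The difference of effects was 3.39 ± 0.19 (edgeR adjusted p = 1.44e-06), from 3.71 ± 0.15 in GCB and 0.32 ± 0.11 in FoB. Its adjusted p stayed at or under 0.0014 in all 24 alternatives.

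The region around Dglucy was looked at after its value was seen. Within 500 kb on either side 7 other genes were tested, and 0 passed the test of the difference. The nearest protein-coding ones tested were Rps6ka5 at -0.09 ± 0.15 and Ccdc88c at 0.14 ± 0.19. Ttc7b, at 100300770 to 100520837 on the same chromosome, was among the 5 genes with the smallest p on the negative side (-0.57 ± 0.15, edgeR adjusted p = 0.170). It measured 37.6, 40.0 and 45.3 CPM in WT GCB and 29.1, 30.9 and 37.0 CPM in cKO GCB.

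Genes of resting follicular cells formed most of the called set. Of the 36, 22 were FoB-high, defined as at least 4-fold higher in WT FoB than in WT GCB with at least 5 CPM in WT FoB. That is 4.10% of the 536 FoB-high genes tested, against 1 of 569 genes that were GCB-high by the reverse rule (0.176%). The WT libraries that define these classes also enter the difference, so the shares are a description only. For 20 genes every cKO GCB library lay between the WT GCB libraries and all FoB libraries, which held for 2.51% of genes tested.

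Receptors that guide migration were among them. Gpr183, the oxysterol receptor EBI2 that draws B cells to the outer follicle (chromosome 14, 121952331 to 121965193), measured 95.8, 128 and 104 CPM in WT FoB and 96.0, 133 and 107 CPM in cKO FoB. In GCB it measured 7.49, 12.6 and 11.1 CPM in WT and 28.2, 29.6 and 20.3 CPM in cKO. The FoB groups coincided while the GCB groups were apart (difference 1.31 ± 0.19, edgeR adjusted p = 0.0176). Ccr6, the receptor for the chemokine CCL20, measured 205, 233 and 185 CPM in WT FoB and 176, 238 and 188 CPM in cKO FoB. It stood at 11.7, 18.4 and 16.6 CPM in WT GCB and at 63.4, 49.0 and 28.5 CPM in cKO GCB. Its difference was 1.62 ± 0.29 (edgeR adjusted p = 0.0444), and within numbers it was 2.65, 1.38 and 0.75. Without WT FoB 1 it was 1.64 (edgeR adjusted p = 0.0525). Both genes are in the list of positioning receptors and G protein confinement, where 2 of 22 tested genes passed and the list's median was 0.03. It had 1 call (Gpr183) without WT FoB 1, WT FoB 2, WT GCB 2 or WT GCB 3, 3 calls without cKO GCB 1 or cKO GCB 3, and 0 without any other single library.

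Il9r and Fcrl5, which encode surface receptors, were also past the test. Il9r, the receptor for interleukin 9, measured 144, 77.4 and 76.2 CPM in WT FoB, 152, 95.7 and 115 CPM in cKO FoB, and 26.9, 15.0 and 20.8 CPM in WT GCB. In cKO GCB it measured 91.7, 46.9 and 50.1 CPM, above every WT GCB library. The difference was 1.23 ± 0.16 (edgeR adjusted p = 0.00681). On the CPM scale number 3 went the other way, at -9.84 CPM, as cKO FoB 3 also exceeded WT FoB 3. Fcrl5, an Fc receptor-like protein of mature B cells, measured 5.81, 6.26 and 3.53 CPM in WT GCB and 35.2, 16.5 and 7.42 CPM in cKO GCB. Its FoB libraries held 88.5 to 153 CPM and overlapped between genotypes (difference 1.98 ± 0.36, edgeR adjusted p = 0.0444).

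Several called genes encode proteins of the actin cytoskeleton. Limk1, a LIM kinase that ROCK phosphorylates and that in turn acts on cofilin, measured 2.33, 2.46 and 3.73 CPM in WT GCB and 7.29, 5.03 and 7.38 CPM in cKO GCB. The FoB libraries held 16.7 to 26.2 CPM with overlapping genotypes. Its difference was 1.23 ± 0.20 (edgeR adjusted p = 0.0294). Capg, which caps actin filaments, measured 16.0, 28.2 and 32.5 CPM in WT GCB and 96.7, 68.1 and 64.7 CPM in cKO GCB, against 300 to 437 CPM in the FoB libraries (1.65 ± 0.30, edgeR adjusted p = 0.0444). S100a10, the partner of annexin A2, had a difference of 1.82 ± 0.29, Pdlim1, a LIM protein of actin fibers, 1.21 ± 0.15, and Svil, which encodes supervillin, 1.51 ± 0.24. These genes did not represent their pathway: in the list of ROCK pathway and actomyosin genes 1 of 31 tested genes passed, 14 lay above 0 and 17 below, and the median was -0.01. In the list of targets of SRF, a factor that responds to actin, 1 of 23 passed (Capg), with a median of 0.04.

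Regulators of transcription and division were also among the called genes. Ccnd2, the G1 cyclin D2, measured 20.1, 28.4 and 21.7 CPM in WT GCB and 70.3, 62.1 and 41.8 CPM in cKO GCB, against 174 to 225 CPM in FoB (1.29 ± 0.20, edgeR adjusted p = 0.0233). Bhlhe41, a repressor of transcription active in B-1 cells, measured 4.43, 6.05 and 6.70 CPM in WT GCB and 27.3, 22.5 and 12.6 CPM in cKO GCB. The cKO GCB values of Bhlhe41 overlapped its FoB range of 13.4 to 32.2 CPM (2.20 ± 0.39, edgeR adjusted p = 0.0384, against 0.0539 without WT FoB 1 and 0.0606 without cKO GCB 1). Aff1, which joins proteins that speed transcript elongation, stood at 1.25 ± 0.23 and Sub1, a transcription coactivator, at 1.28 ± 0.22. Gbp5, a guanylate-binding protein induced by interferon, stood at 1.38 ± 0.22 and Lgals3bp, a secreted galectin ligand, at 1.46 ± 0.25. For Lgals3bp number 3 was -0.886 on the CPM scale. The remaining FoB-leaning genes were Ckap4 (1.42), Slc17a9 (1.37), Adam19 (1.05), Fxyd5 (0.83) and B4galt1 (0.82). Adam19, Fxyd5 and B4galt1 host noncoding RNAs, so part of their reads is uncertain.

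**Figure D3:**
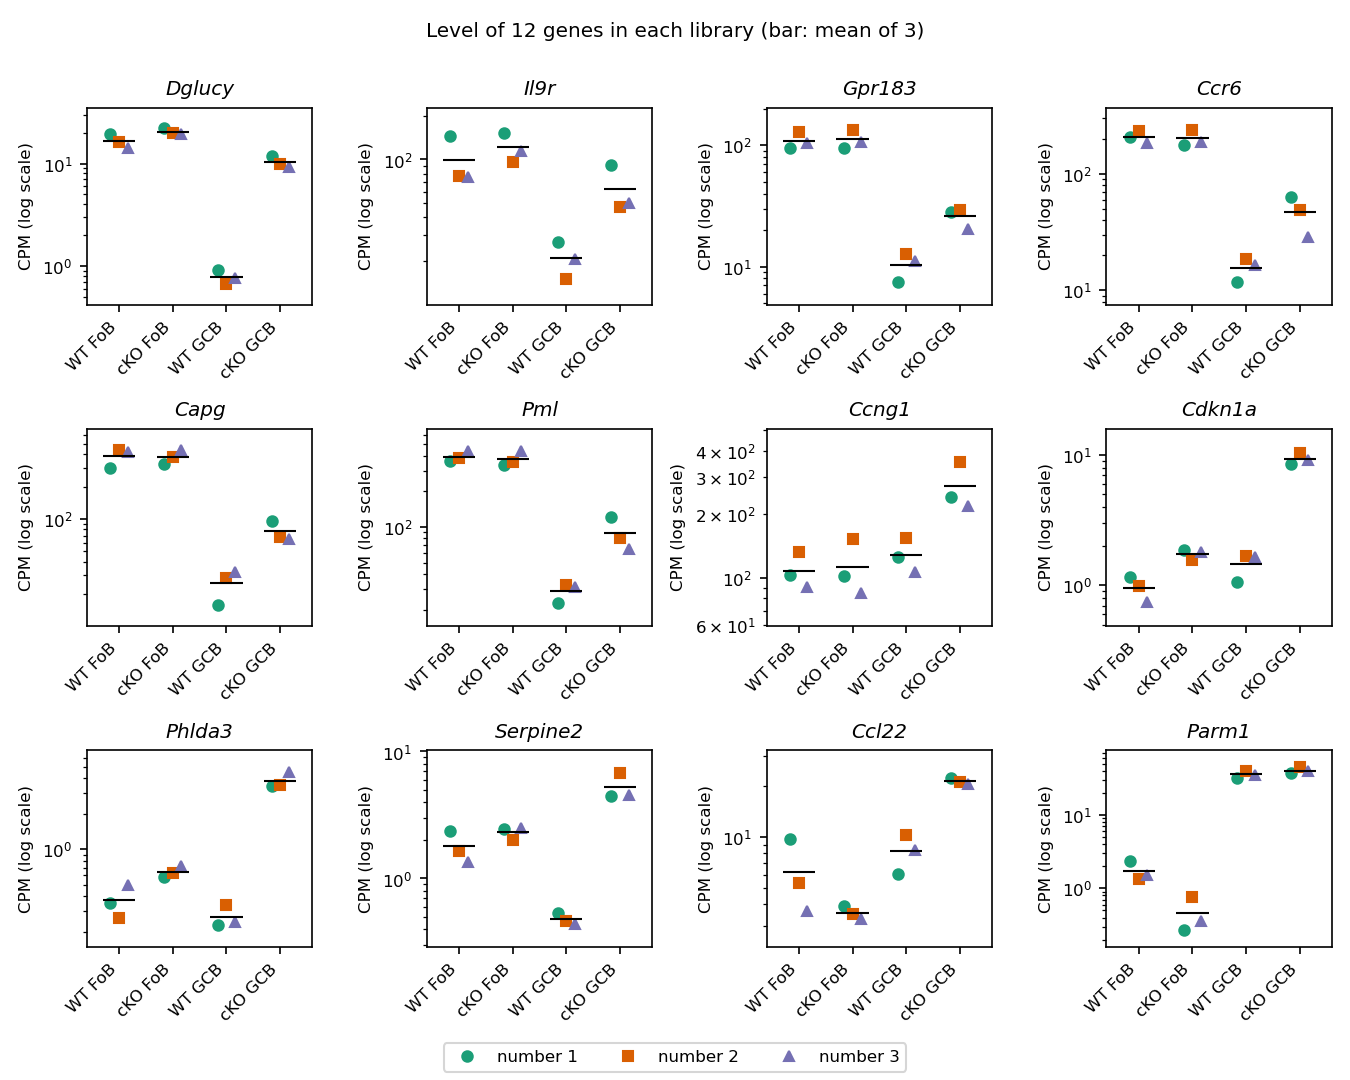
Levels of 12 called genes in the 12 libraries, in CPM on logarithmic axes that differ between panels. Symbols are replicate numbers and bars are means of 3. From Dglucy to Pml the cKO GCB libraries lie between WT GCB and most FoB libraries. From Ccng1 to Ccl22 they lie above all others. For Parm1 the genotypes are apart in FoB, though not past the test there, and overlap in GCB.

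The distance covered towards the FoB level was nearly the same in every number for Dglucy and Il9r, which were singled out after their values were seen. It was computed as the cKO minus WT level in GCB, as a percentage of the gap between WT FoB and WT GCB of the same number. Over all 536 FoB-high genes the median was 12.3% in number 1, 5.58% in number 2 and 2.39% in number 3. The 19 called FoB-high genes other than immunoglobulin segments had medians of 26.8%, 15.0% and 9.79%. Dglucy covered 59.5%, 60.3% and 63.2%, and Il9r 55.4%, 51.2% and 52.8%. Pml, by contrast, covered 29.6%, 13.9% and 8.31%. Ckap4 covered 66.3%, 42.4% and 29.9%, and Bhlhe41 82.1%, 169% and 31.2%.

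**Figure D4:**
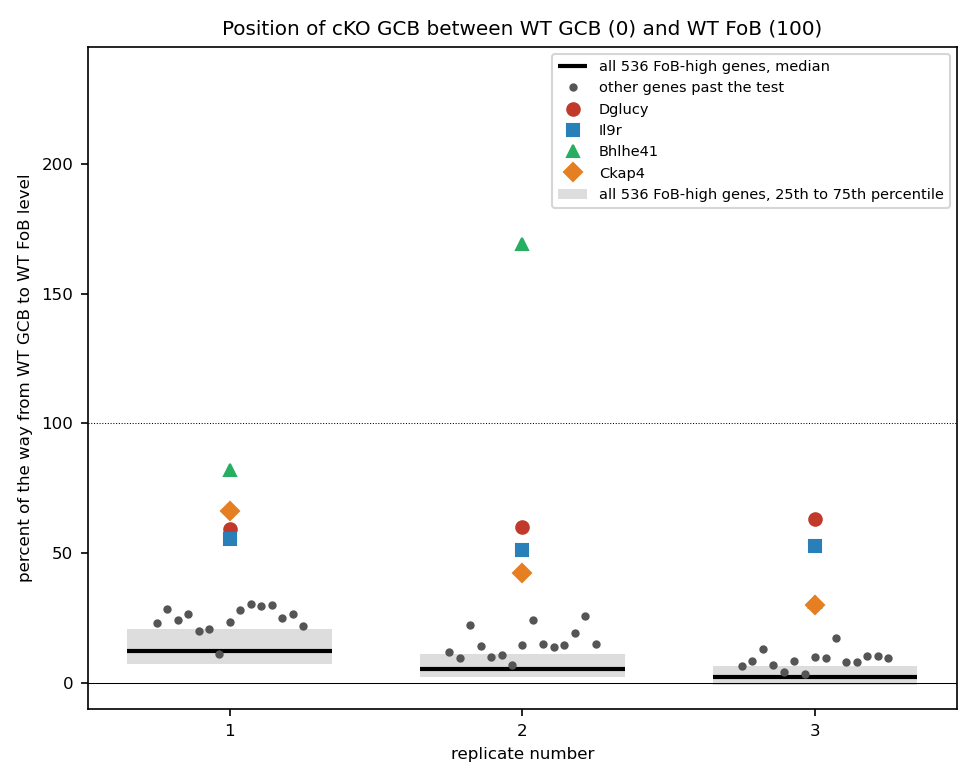
Percentage of the gap from WT GCB (0) to WT FoB (100) that cKO GCB covered, by replicate number. Grey bars are the 25th to 75th percentiles and black lines the medians of all 536 FoB-high genes, and points are the 19 called ones. Dglucy and Il9r lie between 51.2% and 63.2% in each number, while the median of all falls between 2.39% and 12.3%.

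Markers of other cells moved in part alongside these genes. The naive follicular list had 2 of 15 tested genes past the test (Gpr183 and Ccr6), 11 above 0 and a median of 0.72, and the memory precursor list 3 of 15 (these and Il9r), 14 above 0 and a median of 0.82. With 1 library left out these counts ran from 0 (without WT FoB 3, any cKO FoB library, WT GCB 1 or cKO GCB 2) to 5 (without cKO GCB 3) for the naive list, and from 1 (without the same libraries) to 7 (without cKO GCB 3) for the memory precursor list. The median of the naive list was 0.31 without cKO GCB 1. The summed level of the naive list was 1700, 1710 and 1650 CPM in WT GCB. In cKO GCB it was 2230, 2000 and 1520 CPM, so the sum in cKO GCB 3 lay below every WT GCB library. T cell markers had 0 of 16 genes past the test, 14 above 0 and a median of 1.12. Their summed level was 151 to 184 CPM in WT GCB, 170 to 187 CPM in cKO GCB and 308 to 418 CPM in FoB. Cd3e stood at 0.0802 to 0.267 CPM in WT GCB and 0.227 to 0.845 CPM in cKO GCB. NK cell markers had 0 of 11 genes past the test and a median of 0.81, with sums of 14.5 to 20.7 CPM in WT GCB and 25.7 to 29.5 CPM in cKO GCB. Erythroid markers had a median of 0.60 and dendritic cell markers 0.29. Macrophage and monocyte markers had -0.12 (5 above 0 and 5 below), and neutrophil markers -0.43 (1 above 0 and 6 below). The median log2 fold change of erythroid markers was -0.05 in GCB and -0.105 in FoB, and that of dendritic cell markers -0.12 and 0.32. For macrophage and monocyte markers it was -0.17 and -0.07, and for neutrophil markers -1.98 and -0.995. None of these lists had a gene past the test. The part of such cells, or of FoB, in the FoB-like levels of cKO GCB was not tested. For 9 of the 36 called genes every cKO GCB library lay above every FoB library, and this held for 26.4% of all genes tested, so the count is near the background.

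Those 9 included 4 targets of the transcription factor p53 (Ccng1, Cdkn1a, Phlda3 and Zmat3), besides Serpine2, Glipr1, Ccl22, Parm1 and Trabd2b. The p53 target list had 5 of 29 tested genes past the test (17.2%, beside 0.263% of all genes), 24 above 0 and a median of 0.36. It was taken up with earlier results of these data known and is not independent evidence. The count of 5 depended on single libraries. It was 2 without WT FoB 1 (Ccng1 and Pml) or WT GCB 2 (Ccng1 and Phlda3), 3 without cKO GCB 1, 4 without WT FoB 2 and 5 without cKO GCB 3. It was 1 (Ccng1) when any other single library was left out, and 0 without both WT FoB 1 and cKO GCB 1. Ccng1, which encodes cyclin G1 (chromosome 11, 40748552 to 40755309), measured 103, 132 and 90.3 CPM in WT FoB and 102, 153 and 84.9 CPM in cKO FoB. It measured 125, 154 and 106 CPM in WT GCB and 241, 354 and 219 CPM in cKO GCB. The cKO GCB libraries stood above all others, and the difference was 1.03 ± 0.12 (edgeR adjusted p = 0.00681), past the test in 21 of 24 alternatives.

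Cdkn1a, which encodes the cell cycle inhibitor p21 (chromosome 17, 29090979 to 29100722), rose in cKO GCB. It was also higher in every cKO FoB library, though not past the test in FoB. It measured 1.15, 0.994 and 0.744 CPM in WT FoB, 1.88, 1.56 and 1.81 CPM in cKO FoB, 1.07, 1.67 and 1.65 CPM in WT GCB, and 8.53, 10.5 and 9.28 CPM in cKO GCB. The log2 fold changes were 2.69 ± 0.22 in GCB and 0.85 ± 0.25 in FoB, and the difference was 1.84 ± 0.34 (edgeR adjusted p = 0.0446, past the test in 6 of 24 alternatives and up to 0.509, with 0.106 without WT FoB 1 and 0.0661 without cKO GCB 1). Phlda3, a repressor of AKT, measured 0.259 to 0.496 CPM in WT FoB, 0.581 to 0.723 CPM in cKO FoB, 0.229 to 0.334 CPM in WT GCB, and 3.46, 3.50 and 4.51 CPM in cKO GCB. Its genotypes did not overlap in FoB either, though it was not past the test in FoB. The difference was 3.01 ± 0.47 (edgeR adjusted p = 0.0233, and 0.0539 without WT FoB 1). Zmat3, an RNA-binding protein, measured 11.2, 10.8 and 10 CPM in WT FoB and 12, 14.4 and 13.1 CPM in cKO FoB. Every cKO FoB library of Zmat3 thus lay above every WT FoB library (log2 fold change 0.30 ± 0.11, not past the test in FoB). In GCB it measured 20.8, 18.2 and 21.5 CPM in WT and 47.5, 47.3 and 45.9 CPM in cKO. The difference for Zmat3 was 0.92 ± 0.16 (edgeR adjusted p = 0.0335, against 0.061 without WT FoB 1 and 0.0606 without cKO GCB 1). Pml, which organizes nuclear bodies, differed from these in its levels, since it was far higher in FoB. It measured 332 to 437 CPM in the FoB libraries, 22.6, 32.6 and 31.4 CPM in WT GCB and 122, 81.0 and 64.9 CPM in cKO GCB (1.70 ± 0.29, edgeR adjusted p = 0.0335).

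Promoters were searched because p53 acts on DNA at tandem half-sites and 5 of its listed targets passed the test. RefSeq windows (GRCm38.p6) run from 250 bases before to 50 after a gene start, and were on hand for 26 of the 36 called genes and 9668 of the genes tested. The p53 half-site consensus, searched on both strands, occurred in 3 of the 26 (11.5%) and in 7.96% of all. Only the 3 windows with a match follow, on the gene's strand, 5′ to 3′, with matches in capitals. The listed targets Phlda3 and Zmat3 are not among them, for want of a match or of a window. Ccng1 is chr11:40755237-40755536 (minus strand), Cdkn1a is chr17:29090729-29091028 (plus strand) and Pml is chr9:58249737-58250036 (minus strand).
Ccng1: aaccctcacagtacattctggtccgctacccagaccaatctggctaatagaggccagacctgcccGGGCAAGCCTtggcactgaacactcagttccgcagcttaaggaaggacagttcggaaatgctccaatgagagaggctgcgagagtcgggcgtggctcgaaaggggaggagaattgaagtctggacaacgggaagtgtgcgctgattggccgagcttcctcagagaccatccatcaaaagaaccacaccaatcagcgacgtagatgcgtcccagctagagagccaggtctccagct
Cdkn1a: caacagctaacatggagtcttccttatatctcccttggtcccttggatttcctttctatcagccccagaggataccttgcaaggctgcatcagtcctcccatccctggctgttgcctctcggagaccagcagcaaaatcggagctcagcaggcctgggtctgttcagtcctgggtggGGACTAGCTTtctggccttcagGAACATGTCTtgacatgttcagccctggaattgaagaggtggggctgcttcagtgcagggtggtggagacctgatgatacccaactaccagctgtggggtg
Pml: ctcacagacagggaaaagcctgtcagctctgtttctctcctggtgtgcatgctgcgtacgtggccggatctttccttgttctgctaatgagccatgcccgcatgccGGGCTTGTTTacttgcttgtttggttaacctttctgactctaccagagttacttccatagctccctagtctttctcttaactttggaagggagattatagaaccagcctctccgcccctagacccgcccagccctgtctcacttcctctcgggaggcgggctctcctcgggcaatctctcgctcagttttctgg
Cdkn1a held 2 matches, at bases 178 to 187 and 200 to 209 of its window, and the others 1 each. Of the other motifs, GAAANNGAA (the interferon response element) occurred in 2 of 26 windows (Aff1 and Gbp5, 7.69% against 8.82% of all). TCACNCCAC (the sterol element core) occurred in 0 of 26 (1.35% of all), TTTGAA (the CHR) in 4 (15.4% against 14.7%) and TTCCCGC (E2F) in 2 (7.69% against 10.1%). A match is a run of letters and not a site shown to be bound.

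Further called genes were Serpine2, Csf1 and Glipr1. Serpine2, an inhibitor of serine proteases (chromosome 1, 79794317 to 79858665), measured 2.36, 1.64 and 1.36 CPM in WT FoB and 2.46, 2.02 and 2.50 CPM in cKO FoB. In GCB it measured 0.535, 0.459 and 0.441 CPM in WT and 4.47, 6.72 and 4.51 CPM in cKO, above every FoB library. The difference was 3.05 ± 0.39 (edgeR adjusted p = 0.00681), past the test in 20 of 24 alternatives. Csf1, the macrophage growth factor, measured 2.64, 3.17 and 2.45 CPM in WT GCB and 8.98, 9.09 and 6.44 CPM in cKO GCB, overlapping the FoB range of 6.94 to 9.56 CPM (1.75 ± 0.22, edgeR adjusted p = 0.00681). Glipr1, a membrane protein of the CAP family, stood at 17.2 to 30.4 CPM in FoB and WT GCB libraries alike and at 50.8, 63.6 and 34.3 CPM in cKO GCB (0.98 ± 0.14, edgeR adjusted p = 0.0134).

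The 4 called genes with the most negative FoB change are given next, chosen after their values were seen. Parm1, a mucin-like membrane protein (chromosome 5, 91517700 to 91624011), measured 2.36, 1.34 and 1.53 CPM in WT FoB and 0.273, 0.757 and 0.362 CPM in cKO FoB. In GCB, where it was far higher, it measured 31.6, 39.8 and 35.4 CPM in WT and 36.8, 44.6 and 39.6 CPM in cKO. The groups were apart in FoB and overlapped in GCB (log2 fold changes -1.98 ± 0.32 and 0.18, difference 2.16 ± 0.36, edgeR adjusted p = 0.0335). Parm1 overlaps another annotated locus. Trabd2b, a metalloprotease that acts on Wnt proteins, measured 1.35, 0.562 and 0.868 CPM in WT FoB and 0.444, 0.126 and 0.289 CPM in cKO FoB, with 4.13 to 7.07 CPM across GCB (difference 2.11 ± 0.39, edgeR adjusted p = 0.0446). Neither gene passed the test in FoB or in GCB alone. Both were highest in WT FoB 1 of the FoB libraries, which carried more GCB transcripts. Without that library Parm1 had a difference of 1.77 (edgeR adjusted p = 0.0479, over its alternatives 6.02e-11 to 0.509) and Trabd2b of 1.85 (edgeR adjusted p = 0.115, over its alternatives 3.17e-05 to 0.883). Ccl22, a chemokine that attracts T cells through CCR4, measured 9.66, 5.32 and 3.68 CPM in WT FoB and 3.93, 3.53 and 3.29 CPM in cKO FoB. It measured 6.08, 10.2 and 8.43 CPM in WT GCB and 22.2, 21.2 and 20.5 CPM in cKO GCB. Its difference was 2.14 ± 0.37 (edgeR adjusted p = 0.0349) and without WT FoB 1 it was 1.66 (edgeR adjusted p = 0.0308, over its alternatives 1.75e-17 to 0.509). Myo1f, a class I myosin, had log2 fold changes of 0.99 in GCB and -0.40 in FoB (difference 1.39 ± 0.24, edgeR adjusted p = 0.0335). Without WT FoB 1 its difference was 1.36 (edgeR adjusted p = 0.0521, over its alternatives 3.07e-11 to 0.712).

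On the negative side no gene passed, and the 5 with the smallest p are given as not past the test. Cpt1a, which carries fatty acids into mitochondria, came nearest. It measured 107, 138 and 109 CPM in WT FoB, 148, 165 and 150 CPM in cKO FoB, 188, 219 and 191 CPM in WT GCB and 175, 193 and 189 CPM in cKO GCB. The FoB genotypes were apart and the GCB ones overlapped (-0.49 ± 0.12, edgeR adjusted p = 0.107). Rufy3 stood at -0.50 ± 0.13 and E330009J07Rik at -0.50 ± 0.13. The 5 also held Ttc7b, given above, and an immunoglobulin segment. Cholesterol synthesis, which the series title names, had 0 of 22 genes past the test of the difference, although 20 lay below 0 and the median was -0.26. Within numbers the median was -0.22, -0.35 and -0.17, and 7 of the 22 fell in cKO GCB by their own test. Msmo1, the sterol methyl oxidase, stood at -0.43 ± 0.15 (edgeR adjusted p = 0.356) and Cyp51, the lanosterol demethylase, at -0.36 ± 0.13 (edgeR adjusted p = 0.442).

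Most of the other lists had few or no genes past the test. The light zone list had 1 of 23 (Ccnd2, median 0.27), the marginal zone and B-1 list 1 of 17 (Bhlhe41, median 0.54) and interferon-stimulated genes 1 of 30 (Lgals3bp, median 0.09). Cyclins and cell cycle inhibitors had 2 of 18 (Ccnd2 and Cdkn1a, median 0.03). The germinal center list had 0 of 23 and a median of 0.08, with medians of -0.19 in GCB and -0.16 in FoB. Plasma cell genes had 0 of 15 and a median of 0.52. S phase genes had 0 of 24 (median 0.09), G2/M genes 0 of 25 (0.08), ribosomal proteins 0 of 28 (-0.02) and B cell receptor signaling 0 of 23 (-0.09, with 19 below 0). Immunoglobulin segments had 3 of 246 past the test, with 179 above 0 and a median of 0.27. The 3 were Igkv3-5 (1.42 ± 0.19), Igkv3-4 (1.02 ± 0.19) and Igkv4-55 (0.86 ± 0.15), all higher in FoB than in GCB. Near-identical segments can share reads, so their split is uncertain.

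**Figure D5:**
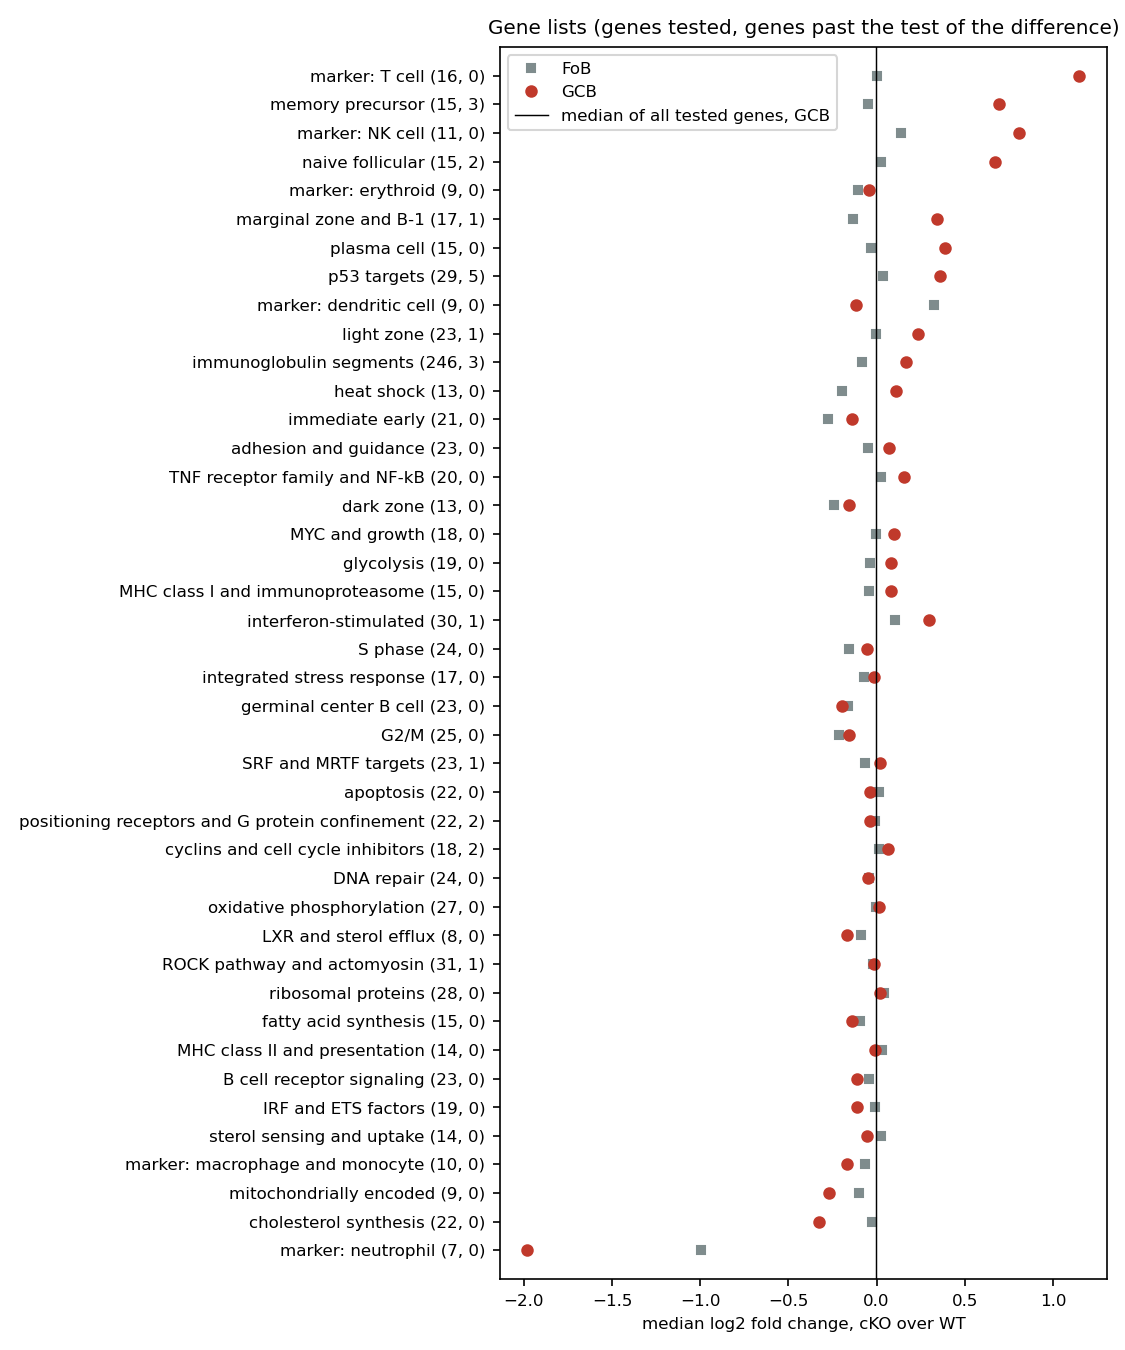
Median log2 fold change of cKO over WT in GCB (red circles) and FoB (grey squares) for each gene list, ordered by the median difference. Brackets give genes tested and genes past the test of the difference. The p53 target list lies at 0.36 in GCB and 0.04 in FoB, and cholesterol synthesis at -0.33 and -0.03.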

How the data were processed

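Polyadenylated RNA of 12 libraries was analysed, and the 4 ATAC-seq samples were not analysed here. The deposited table holds raw read counts per gene, made by the authors. The submitters' processing notes name mm10, Bowtie2, MACS2 and edgeR. They were read for both assays together, so the aligner of the RNA-seq reads is not settled here. Counter, annotation and strand use were not given in the sources used here. Of 25640 genes, 13708 passed the low-count filter (filterByExpr on 4 groups), and they held 99.93% to 99.96% of counts. Counts were fitted in R 4.3.3 with edgeR 4.0.16 (TMM factors, quasi-likelihood F test, replicate number as a block, 6 residual degrees of freedom, coefficient of variation 0.114). Benjamini-Hochberg adjustment ran over all genes tested, with a threshold of 0.05. Levels are TMM-scaled CPM, and 1 CPM was 23.1 to 29.3 reads. Standard errors are the log2 change over the square root of F. The authors also deposited log2 CPM, log2 fold changes, p-values and FDR, which were not used for any result.

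Replicate numbers were checked before calls were compared. After group means were taken off, same-numbered libraries correlated at 0.478 to 0.753 (18 pairs) and others at -0.654 to 0.0952 (36 pairs), so the numbers pair the samples. Xist, an RNA of female cells, was highest in number 1 and lowest in number 2 in every group. It measured 456 to 763 CPM in number 1, 42.0 to 234 CPM in number 2 and 188 to 300 CPM in number 3. The sex of the mice is not among the labels used here, and its part was not tested. The samples, gene lists and tests were chosen with earlier results of these data known. The naming rule took Rock2 and Rock1, the 12 largest called differences per direction with at least 5 CPM in a group and 1 sign in 3 numbers, the 5 smallest p-values where fewer than 5 passed, and up to 2 genes per list. Symbols and coordinates came from RefSeq tables (GRCm38.p6). The test was tried on simulated data. Alternatives were the block, scaling, filter, DESeq2 1.42.0, limma 3.58.1 voom and leaving out libraries.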

Additional observations from a re-analysis of the deposited data

Results flagged for a closer look

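The change from WT to cKO differed between GCB and FoB for 36 genes by edgeR's test of the difference itself, and each is listed with that difference on the log2 scale (GCB minus FoB). Among FoB-high genes the 4 that covered the most of the gap to the FoB level were Dglucy 3.40, Il9r 1.23, Ckap4 1.42 and Bhlhe41 2.20. Other FoB-high genes were Gpr183 1.31, Ccr6 1.62, Fcrl5 1.98, Ccnd2 1.29, Capg 1.65, S100a10 1.82, Limk1 1.24, Svil 1.51, Gbp5 1.38, Lgals3bp 1.46, Sub1 1.27, Aff1 1.25, Fxyd5 0.83 and Slc17a9 1.37. Genes higher in WT FoB by less than 4-fold included Pdlim1 1.22, Adam19 1.05, B4galt1 0.82 and Csf1 1.75. Members of the p53 target list were Ccng1 1.03, Cdkn1a 1.84, Phlda3 3.01, Zmat3 0.92 and Pml 1.70. Serpine2 3.05 and Glipr1 0.98 were above every FoB level in cKO GCB, as were Parm1, Trabd2b and Ccl22. The 4 with the most negative change in FoB were Parm1 2.16, Trabd2b 2.11, Ccl22 2.14 and Myo1f 1.39. Immunoglobulin segments were Igkv3-5 1.42, Igkv3-4 1.02 and Igkv4-55 0.86.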

How the results depend on the processing

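The number of genes with a higher effect in GCB was 36. It was 1 with no replicate block, 13 with the block within genotype, 113 with the block within cell type, 22 with RLE factors, 158 with DESeq2 and 357 with no low-count filter. It ran from 1 to 153 when libraries were left out (1 without WT FoB 1 and cKO GCB 1, 2 without number 2, 153 without cKO GCB 3). The 0 genes with a lower effect became 3 with DESeq2 and 4 with no filter, and stayed at 0 when libraries were left out. The 264 genes higher in cKO GCB became 14 without the block, 420 with DESeq2 and 634 with no filter. The 29 lower ones became 0 without the block, 81 with the block within cell type, 129 with DESeq2, 53 with voom and 123 with no filter. With libraries left out these counts ran from 41 to 321 and from 3 to 53. In FoB, DESeq2 gave 3 higher and 4 lower genes, voom 2 higher, and no filter 15 and 42, with leave-out ranges of 0 to 3 and 0 to 4. The causes were not tested. The median difference over all genes moved by under 0.1 in every alternative. Across alternatives, 419 values of called genes kept direction and call, 445 kept the direction without the call, and 0 reversed. With libraries left out Rock2 ran from -0.294 to 0.0942 (reversed without number 1 and, at 0.0755, without both libraries) and Rock1 from -0.173 to 0.0408 (reversed without number 1, at 0.0201 without both and at 0.00657 without WT GCB 1). Levels under 1 CPM, as for Phlda3, Serpine2 and Trabd2b in some groups, rest on at most 29.3 reads per library.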
